A study of Rattus norvegicus with 12 samples.

Results

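Expression of 8 genes of the extracellular matrix was followed in rat mixed CNS glial cultures 6 hours after addition of Th1, monocyte/macrophage (M/M) or Th2 cytokines. The genes were the fibrillar collagens Col1a1, Col1a2 and Col3a1, fibronectin (Fn1), the small leucine-rich proteoglycans decorin (Dcn) and biglycan (Bgn), and the matrix-associated glycoproteins Sparc and osteopontin (Spp1). Every probe set that the array annotation assigns to 1 of these symbols was included, whatever its signal, which gave 23 of 8740 probe sets and 8 of 4736 genes. Fn1 had 5 probe sets, Col1a1, Sparc and Dcn had 4 each, Col3a1 and Bgn had 2 each, and Col1a2 and Spp1 had 1 each. Th1 cultures received IL-2, interferon-γ, TNF-α and G-CSF. M/M cultures received IL-1α, IL-1β, IL-12p40 and TNF-α, and Th2 cultures received porcine TGF-β1 with IL-5, G-CSF and IL-10, according to the sample labels, whereas the methods add IL-6 to the M/M and IL-4 to the Th2 mixture. Control cultures received additional medium. Each cytokine was used at 10 ng/ml, and all cultures, controls included, had first spent 6 to 8 days in a defined medium that contained 2% fetal bovine serum. The cultures were made from neonatal rat brain by a shake-off method and held oligodendrocytes, astrocytes, microglia and glial precursors. RNA came from whole cultures, so that fewer cells of a type and less RNA per cell cannot be told apart. Each of 3 separate experiments had 1 culture of each kind, and the 12 Affymetrix arrays limit the precision.

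Type I collagen, built from the Col1a1 and Col1a2 chains, and type III collagen form the fibrils of connective tissue. Fibronectin links these fibrils to integrins on the cell surface. Decorin and biglycan bind collagen fibrils and TGF-β, SPARC binds collagen and regulates its assembly, and osteopontin is a secreted ligand of integrins and of CD44 that macrophages and microglia make. In the brain the interstitial collagens are found mainly in the meninges and vessel walls, and TGF-β is a classic inducer of collagen and fibronectin genes in fibroblasts.

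Array medians differed between experiments and, in some of them, between cultures of 1 experiment. On the log2 scale the median signal of treated arrays lay between -0.05 and 0.04 of that of the control array in experiment 1. It was 0.67, 0.59 and 0.55 above control with Th1, M/M and Th2 cytokines in experiment 2, and -0.13, 0.65 and 0.11 from control in experiment 3. The deposited signals, calculated by the authors, were used without rescaling, and differences with every array centred on its median are also given for most probe sets. Markers of oligodendrocytes (Mbp, Cnp, Mag, Mog, Mobp and Mal), astrocytes and microglia were present in all arrays, while the defining astrocyte gene Gfap was not matched by symbol. Endothelial sums (Pecam1, Vwf, Kdr and Flt1) were 36.0 to 125 with Th1, 103 to 122 with M/M and 74.3 to 143 with Th2 cytokines and 92.1 to 235 in control cultures, and Kdr had a mean signal under 10. Sums of 4 pericyte and smooth muscle markers were 2202 to 2582 with Th1, 2044 to 3360 with M/M and 2143 to 2728 with Th2 cytokines, and 2174 to 2588 in control cultures. Sums of 7 neuronal markers were 124 to 527, 268 to 446 and 175 to 464 in Th1, M/M and Th2 cultures and 126 to 419 in control cultures, and those of the precursor markers Pdgfra and Cspg4 were 332 to 793, 286 to 814 and 337 to 576 with the mixtures and 392 to 625 in control cultures.

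None of the 23 matrix probe sets passed the test for any mixture. The test was limma's, with experiment as a block, and a probe set was called at an adjusted p under 0.05 over all probe sets. Among all 8740 probe sets 0 (0%) were called for Th1 cytokines, 23 (0.263%) for M/M cytokines and 1 (0.0114%) for Th2 cytokines, so that calls were rare in general. The lowest adjusted p of any matrix probe set was 0.857 for Th1 cytokines, 0.145 for M/M cytokines and 0.642 for Th2 cytokines. At an unadjusted p under 0.05 there was 1 matrix probe set for Th1 (5.56% of all probe sets), 6 for M/M (15.9% of all) and 3 for Th2 cytokines (6.75% of all). The 6 for M/M were 4 of Fn1 and 1 of Spp1, with higher signals, and 1 of Dcn, with a lower signal. The median log2 difference over the 23 was 0.11 for Th1 cytokines, 0.45 for M/M cytokines and 0.22 for Th2 cytokines, beside 0.14, 0.33 and 0.19 over all probe sets. The 3 comparisons share the control arrays.

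**Figure D1:**
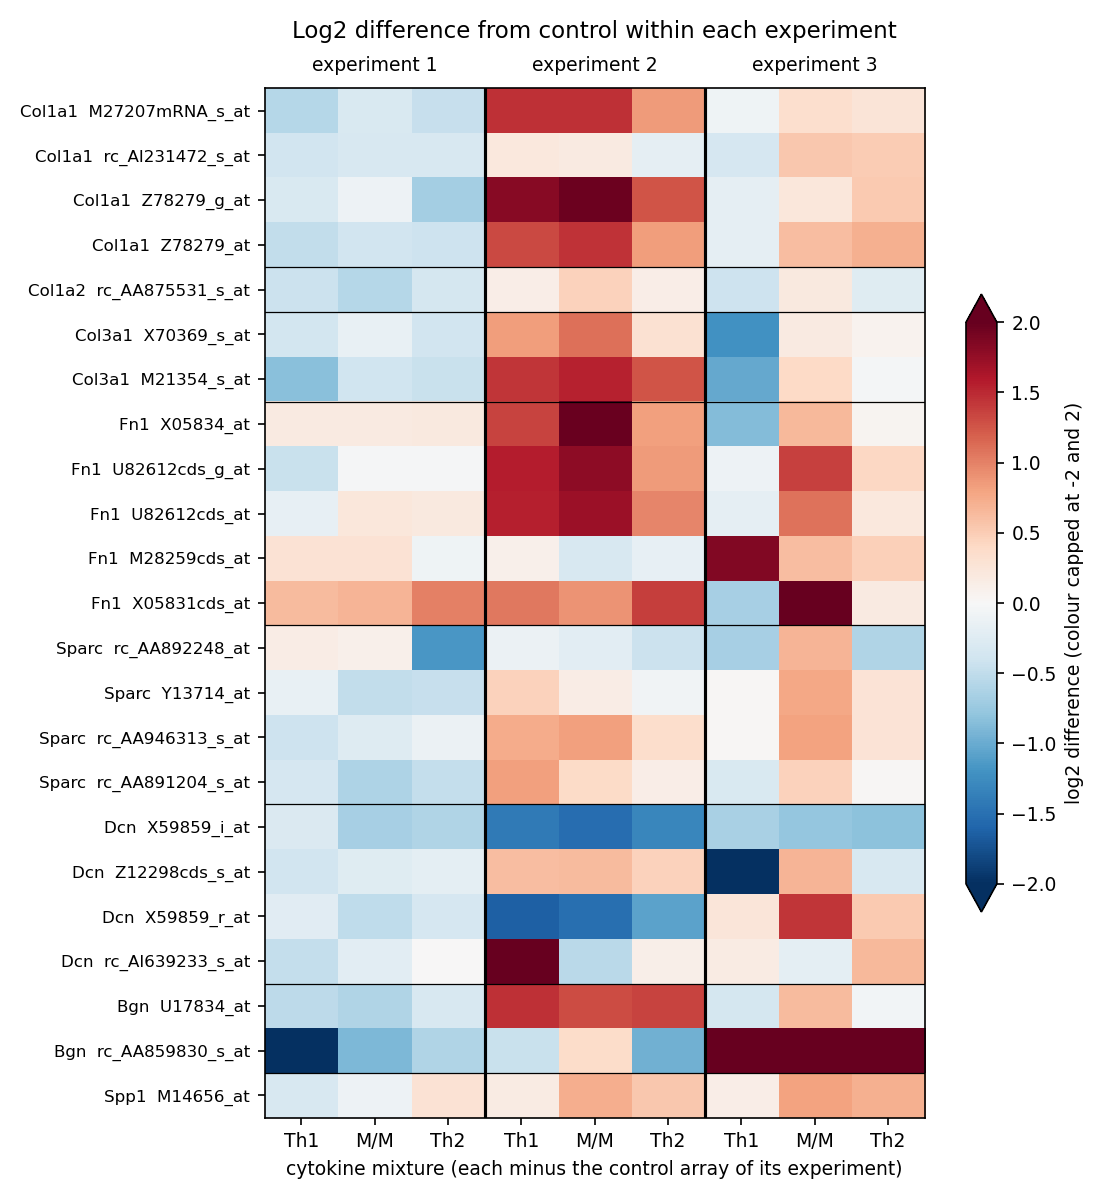
Log2 difference between each treated array and the control array of its experiment for the 23 matrix probe sets, 1 per line and grouped by gene, with columns for Th1, M/M and Th2 cytokines within experiments 1, 2 and 3. Red is higher and blue lower with cytokines; most collagen probe sets are blue in experiment 1 and red in experiment 2, while Dcn X59859_i_at is blue in all 9 columns.

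Col1a1, for the α1 chain of type I collagen, had, as deposited, no common direction over the experiments with any mixture. Probe set M27207mRNA_s_at had signals of 1128, 595 and 785 with Th1 cytokines in experiments 1, 2 and 3, of 1365, 597 and 1052 with M/M cytokines, of 1221, 391 and 999.7 with Th2 cytokines, and of 1682, 217 and 833 in control cultures. Control was the highest array of experiment 1 and the lowest of experiment 2, and the groups overlapped. Means were 836 ± 270.3, 1005 ± 386 and 870.5 ± 429.9 in Th1, M/M and Th2 cultures, against 910.5 ± 736 in control cultures (SD, n = 3 each). The log2 difference from control was 0.27 for Th1 (SE 0.31, limma adjusted p = 0.902), 0.50 for M/M (SE 0.31, adjusted p = 0.43) and 0.22 for Th2 cytokines (SE 0.31, adjusted p = 0.878). Control was also highest in experiment 1 and lowest in experiment 2 for Z78279_g_at, with 651, 222 and 461 with Th1, 746, 245 and 613 with M/M, and 504, 151 and 748 with Th2 cytokines, against 805, 63.0 and 522 in control cultures. Its M/M difference of 0.69 (SE 0.38, adjusted p = 0.376) was the largest of the 7 collagen probe sets. Z78279_at had 318, 167 and 173 with Th1, 341, 183 and 297 with M/M, and 336, 121 and 318 with Th2 cytokines, against 447, 67.3 and 195 in control cultures. Its log2 differences were 0.22, 0.55 and 0.38 for Th1, M/M and Th2 cytokines (SE 0.34 each). The fourth, rc_AI231472_s_at, varied least between experiments, with 556, 378 and 428 with Th1, 579, 367 and 783 with M/M, and 583, 287 and 769 with Th2 cytokines, against 724, 325 and 542 in control cultures. Its differences were -0.17, 0.13 and 0.00 (SE 0.24 each). Centred on array medians, the Th1, M/M and Th2 differences were 0.11, 0.07 and 0.00 for M27207mRNA_s_at, 0.28, 0.27 and 0.15 for Z78279_g_at, 0.06, 0.13 and 0.17 for Z78279_at, and -0.33, -0.30 and -0.21 for rc_AI231472_s_at.

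The α2 chain gene Col1a2 was represented by 1 probe set, rc_AA875531_s_at, and its treated arrays lay at 0.67 to 1.37 of control. Signals were 777, 209.6 and 638 with Th1, 708, 263 and 966 with M/M, and 828, 210.5 and 714 with Th2 cytokines, against 1052, 191 and 846 in control cultures. All 3 treated arrays were below control in experiment 1 and above it in experiment 2. The log2 differences were -0.24 (SE 0.21), 0.03 (SE 0.21) and -0.15 (SE 0.21) for Th1, M/M and Th2 cytokines, with adjusted p = 0.869, 0.959 and 0.878. With the arrays centred, all 9 treated arrays were below control and the differences were -0.40, -0.40 and -0.36. Of the 8 genes, 3 matched a promoter in the RefSeq table, and that of Col1a2 is shown because the fibrillar collagens varied together. The stretch lies at chr4:33518307-33518416 on the plus strand of GRCr8, from 250 to 141 bases before the annotated start, and capitals mark matches to TATAAA, to CCAAT (here on the opposite strand) and CAGAC, a sequence that SMAD proteins bind (also on the opposite strand).
Col1a2: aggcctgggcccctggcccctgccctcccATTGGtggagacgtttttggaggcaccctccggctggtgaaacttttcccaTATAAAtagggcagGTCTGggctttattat
The matches begin 170, 221 and 156 bases before the start. Searched on both strands over the same 110 positions, TATAAA occurs in 5.86%, CCAAT in 15.9% and CAGAC in 22.4% of 33469 promoters. The AP-1 sequence TGANTCA, which occurs there in 2.88% of promoters, and the STAT sequence TTCNNNGAA, in 3.54%, were searched too and had no match in this stretch. Positions nearer to the start than 141 bases were not searched for Col1a2.

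Col3a1, for type III collagen, behaved like Col1a1 in experiments 1 and 2 and had its lowest Th1 ratio in experiment 3. Signals of X70369_s_at were 1048, 249 and 273 with Th1, 1222, 301 and 718 with M/M, and 1035, 173 and 668 with Th2 cytokines, against 1357, 139.8 and 634 in control cultures. The Th1 array of experiment 3 was thus at 0.43 of its control, whereas that of experiment 2 was at 1.78 of its control. Log2 differences were -0.25 for Th1 (SE 0.33, limma adjusted p = 0.916), 0.38 for M/M (SE 0.33, adjusted p = 0.577) and 0.00 for Th2 cytokines (SE 0.33, adjusted p = 0.999). The second probe set, M21354_s_at, gave -0.14, 0.51 and 0.26, each with an SE of 0.40, from signals of 173, 70.8 and 98.5 with Th1, 236, 76.1 and 262 with M/M, and 229, 62.7 and 194 with Th2 cytokines, against 311, 26.2 and 199.9 in control cultures. Th1 was again below control in experiments 1 and 3 and above it in experiment 2. Centred differences were -0.41, -0.05 and -0.21 for X70369_s_at and -0.30, 0.08 and 0.04 for M21354_s_at, in Th1, M/M and Th2 cultures.

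Of the 5 Fn1 probe sets, 4 had M/M log2 differences between 0.93 and 1.45, and none passed the test. Probe set X05834_at had signals of 1748, 548 and 1019 with Th1, 1749, 841 and 2916 with M/M, and 1765, 379 and 1940.5 with Th2 cytokines, against 1541, 214 and 1861 in control cultures. Signals were above control in 3 of 3 experiments with M/M or Th2 cytokines, but in 2 of 3 with Th1 cytokines. Means were 1105 ± 605, 1835 ± 1040.0 and 1362 ± 855 for Th1, M/M and Th2 cytokines, against 1205 ± 873 in control cultures (SD, n = 3 each). The M/M arrays were at 1.14, 3.92 and 1.57 times control in experiments 1, 2 and 3. The log2 difference was 0.93 for M/M (SE 0.34, limma adjusted p = 0.244), 0.36 for Th2 (SE 0.34, adjusted p = 0.821) and 0.22 for Th1 cytokines (SE 0.34, adjusted p = 0.927). The M/M value rests in part on experiment 2, without which it was 0.42 (adjusted p = 0.773), and it was 0.51 (adjusted p = 0.451) with the arrays centred on their medians.

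The other Fn1 probe sets differed among themselves. U82612cds_g_at had 96.7, 59.1 and 58.4 with Th1, 129, 68.4 and 161 with M/M, and 129, 35.6 and 83.6 with Th2 cytokines, against 131, 19.9 and 62.8 in control cultures, a log2 difference of 1.04 for M/M (SE 0.39, adjusted p = 0.245). U82612cds_at had 82.7, 80.6 and 50.3 with Th1, 108, 88.9 and 121 with M/M, and 105, 53.6 and 66.4 with Th2 cytokines, against 92.3, 27.3 and 57.1 in control cultures, with an M/M difference of 1.0 (SE 0.36, adjusted p = 0.234). Both resembled X05834_at, with M/M arrays of experiments 2 and 3 above control. Their M/M differences were 0.61 and 0.58 with the arrays centred. X05831cds_at was dim, with 18.9, 20.6 and 1.90 with Th1, 19.6, 18.3 and 20.5 with M/M, and 24.7, 25.7 and 3.4 with Th2 cytokines, against 12.2, 9.85 and 3.00 in control cultures. All its M/M signals were above all control signals, and its M/M difference was 1.45 (SE 0.63, adjusted p = 0.292), which became 0.51 without the M/M array of experiment 3 and 1.02 with the arrays centred. M28259cds_at, also dim, had 42.2, 38.5 and 10.1 with Th1, 42.0, 28.6 and 4.30 with M/M, and 32.6, 31.9 and 3.90 with Th2 cytokines, against 34.5, 35.9 and 2.80 in control cultures. As deposited, it was the 1 matrix probe set above control in 3 of 3 experiments with Th1 cytokines. Its Th1 difference of 0.75 (SE 0.42, adjusted p = 0.857) became 0.20 without experiment 3. Under the screening criteria of the methods (a fold over 2 together with p below 0.2 in an analysis of variance), 2 matrix probe sets passed for M/M, U82612cds_at and X05831cds_at of Fn1 (6.82% of all), while 0 passed for Th1 (2.77% of all) or Th2 cytokines (3.42% of all).

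**Figure D2:**
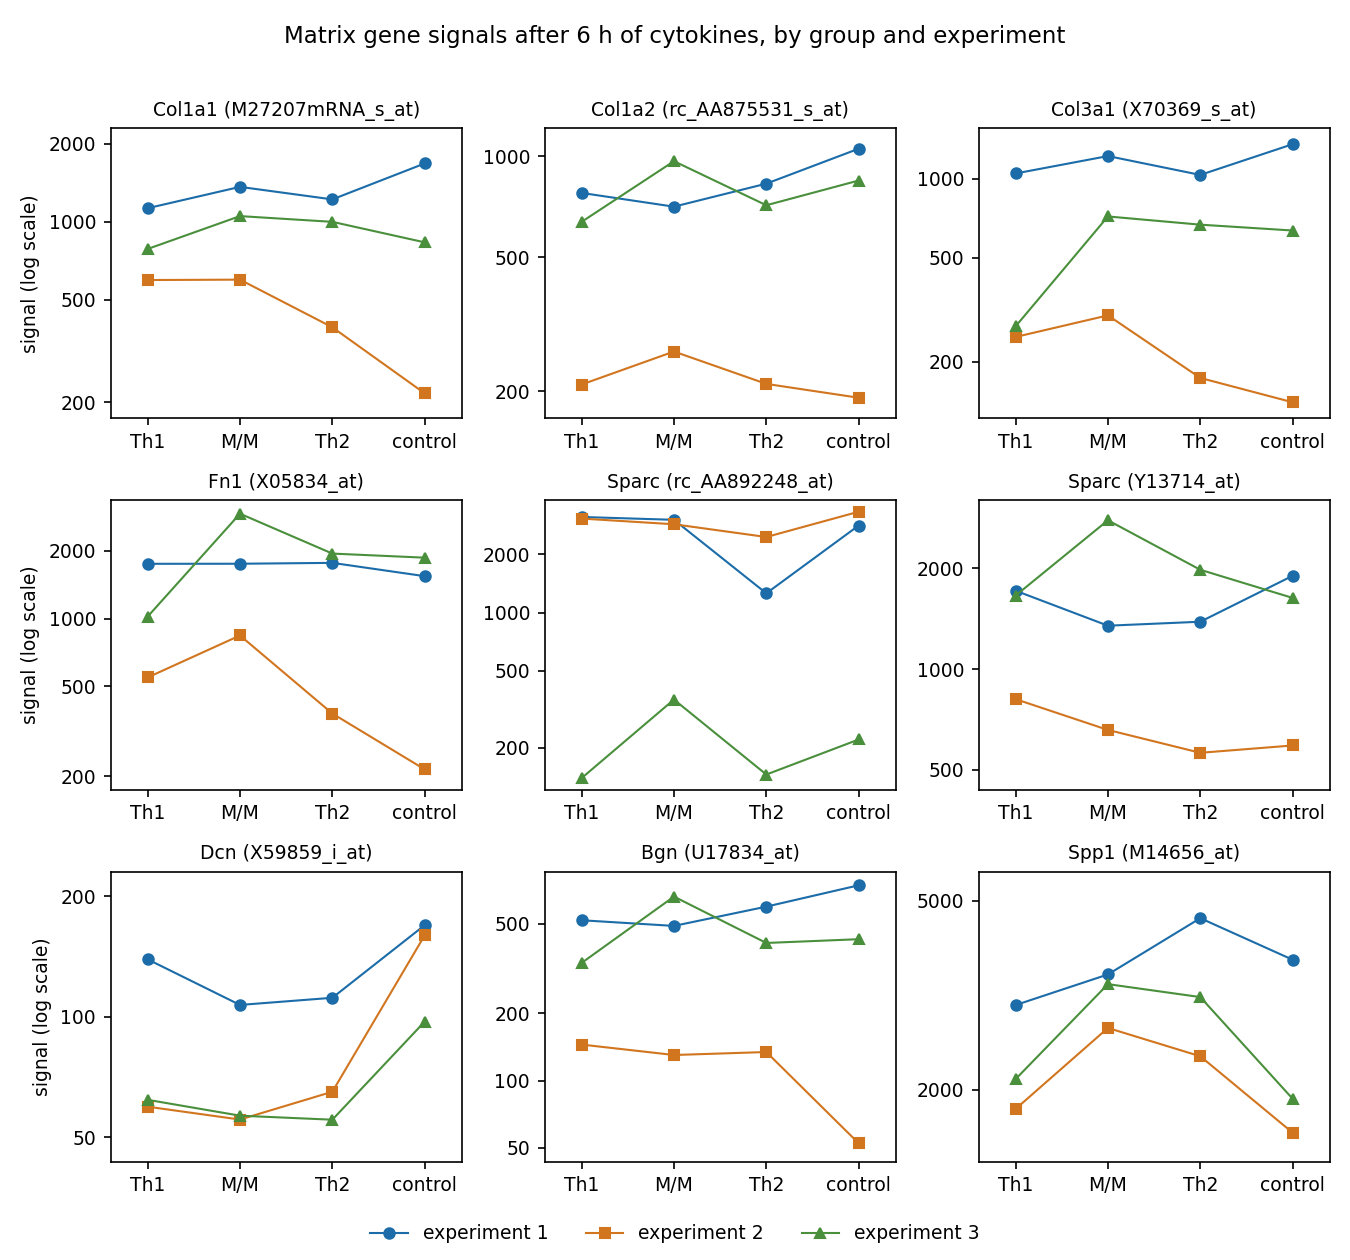
Signals (log scale) of Th1, M/M, Th2 and control cultures for the brightest probe set of each gene and for a second Sparc probe set, with 1 line per experiment. Experiment 2 is the lowest line for the collagens, Fn1, Bgn, Spp1 and Sparc Y13714_at, while experiment 3 is the lowest for Sparc rc_AA892248_at.

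Decorin, a proteoglycan that coats collagen fibrils and binds TGF-β, had the 1 probe set that, as deposited, was below control in all 9 treated arrays. X59859_i_at had signals of 139, 59.6 and 62.0 with Th1, 107, 55.4 and 56.6 with M/M, and 111, 64.9 and 55.3 with Th2 cytokines, against 169, 159.6 and 97.2 in control cultures. Only the treated arrays of experiment 1 reached above the lowest control signal, and each treated array was at 0.35 to 0.82 of the control of its experiment. The log2 difference was -0.78 for Th1 (SE 0.27, limma adjusted p = 0.857), -0.99 for M/M (SE 0.27, adjusted p = 0.145) and -0.90 for Th2 cytokines (SE 0.27, adjusted p = 0.642). With the arrays centred these were -0.94, -1.42 and -1.12, and the lowest adjusted p over the alternatives was 0.0809, for M/M without the control array of experiment 1.

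The other 3 Dcn probe sets did not share that direction in every experiment. X59859_r_at, named for the same sequence record, had 59.5, 44.2 and 6.30 with Th1, 49.0, 48.3 and 14.3 with M/M, and 55.5, 65.2 and 7.60 with Th2 cytokines, against 69.9, 137 and 5.30 in control cultures. Its treated arrays were below control in experiments 1 and 2 and above it in experiment 3. Z12298cds_s_at had 111, 55.5 and 9.60 with Th1, 122, 56.0 and 66.8 with M/M, and 127, 49.9 and 33.5 with Th2 cytokines, against 145, 36.2 and 41.8 in control cultures. It ran opposite to X59859_i_at in experiment 2, where all its treated arrays were above control, and its log2 differences were -0.63, 0.35 and -0.02 for Th1, M/M and Th2 cytokines. The dimmest, rc_AI639233_s_at, had 39.6, 12.4 and 19.3 with Th1, 47.8, 2.11 and 15.1 with M/M, and 55.4, 3.34 and 27.2 with Th2 cytokines, against 55.1, 3.08 and 17.3 in control cultures. Over the 9 within-experiment differences, the correlation between X59859_i_at and Z12298cds_s_at was -0.58, and that between X59859_i_at and X59859_r_at was 0.64, as descriptions over points that share 3 control arrays. Over the 12 arrays themselves these were 0.50 and 0.53, so that the opposition lay in the differences from control. The direction for Dcn thus differed with the probe set and the experiment.

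Biglycan, the other small leucine-rich proteoglycan, followed the collagens at U17834_at, the brighter of its 2 probe sets. U17834_at had signals of 519, 145 and 335 with Th1, 490.1, 130.0 and 662 with M/M, and 597, 134 and 411 with Th2 cytokines, against 744, 52.5 and 428 in control cultures. Treated arrays were at 2.76, 2.48 and 2.56 times control with Th1, M/M and Th2 cytokines in experiment 2 and at 0.70, 0.66 and 0.80 times control in experiment 1. The log2 differences were 0.20 for Th1 (SE 0.36, limma adjusted p = 0.941), 0.45 for M/M (SE 0.36, adjusted p = 0.543) and 0.33 for Th2 cytokines (SE 0.36, adjusted p = 0.839). The dimmer rc_AA859830_s_at had 21.4, 8.82 and 38.0 with Th1, 50.2, 15.5 and 75.0 with M/M, and 61.6, 6.18 and 58.1 with Th2 cytokines, against 93.4, 12.0 and 4.10 in control cultures. Its control array of experiment 3 stood far below the treated ones, and its M/M difference of 1.22 (SE 0.84) became -0.28 without that array. Over the 9 differences this probe set correlated at 0.06, 0.15 and -0.17 with the brightest Col1a1, Col1a2 and Col3a1 probe sets. Over the 12 arrays these correlations were 0.67, 0.64 and 0.63. Centred differences of U17834_at were 0.04, 0.02 and 0.11 in Th1, M/M and Th2 cultures.

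Sparc, for a collagen-binding glycoprotein of the matrix, had 3 probe sets that followed each other and 1 that did not. Y13714_at had signals of 1716, 813 and 1659 with Th1, 1348, 657 and 2788 with M/M, and 1385, 561 and 1982 with Th2 cytokines, against 1902, 590.4 and 1632 in control cultures. The M/M array of experiment 3 was the highest and the Th2 array of experiment 2 the lowest. Log2 differences were 0.11 for Th1 (SE 0.23, limma adjusted p = 0.956), 0.14 for M/M (SE 0.23, adjusted p = 0.779) and -0.08 for Th2 cytokines (SE 0.23, adjusted p = 0.948). For rc_AA946313_s_at they were 0.11, 0.45 and 0.17, with signals of 919.6, 485 and 779 with Th1, 1032, 512 and 1333 with M/M, and 1140.4, 372 and 924 with Th2 cytokines, against 1231, 290.5 and 766 in control cultures. For rc_AA891204_s_at they were 0.06, 0.08 and -0.10, with signals of 493, 267 and 496 with Th1, 407, 197 and 848 with M/M, and 449.9, 166 and 625 with Th2 cytokines, against 624, 151 and 615 in control cultures. Over the 12 arrays these 3 correlated with each other at 0.91 to 0.99, as points that fall into 3 experiments. Centred differences of Y13714_at were -0.05, -0.28 and -0.30 in Th1, M/M and Th2 cultures.

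Sparc probe set rc_AA892248_at differed from these in the order of the experiments. It had signals of 3126, 3067 and 139 with Th1, 3022, 2866 and 354 with M/M, and 1258, 2462 and 145 with Th2 cytokines, against 2824, 3328 and 220.2 in control cultures. All 4 arrays of experiment 3 were low, whereas the 3 other Sparc probe sets were lowest in experiment 2 in every group. Its correlation with Y13714_at was -0.59 over the 12 arrays, but 0.49 over the 9 differences from control. Th2 was below control in 3 of 3 experiments, at 0.45, 0.74 and 0.66 of control, a log2 difference of -0.73 (SE 0.27, limma adjusted p = 0.715). The Th2 minus M/M difference was -0.92 (SE 0.27, adjusted p = 0.998). Th1 and M/M differed from control by -0.21 and 0.19. Its centred differences were -0.37, -0.24 and -0.95 in Th1, M/M and Th2 cultures.

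Osteopontin (Spp1) had the smallest SE of the 23 probe sets, and its M/M and Th2 differences from control were alike in size. M14656_at had signals of 3012, 1820.2 and 2104 with Th1, 3495, 2696 and 3334 with M/M, and 4590.0, 2350.4 and 3131 with Th2 cytokines, against 3753, 1622 and 1912 in control cultures. Th2 was above control in 3 of 3 experiments, M/M and Th1 in 2 of 3, and the control signal of experiment 1 was above all Th1 and M/M signals, so that the groups overlapped. The log2 difference was 0.00 for Th1 (SE 0.18, limma adjusted p = 0.9995), 0.48 for M/M (SE 0.18, adjusted p = 0.253) and 0.51 for Th2 cytokines (SE 0.18, adjusted p = 0.715). With the arrays centred they were -0.16, 0.05 and 0.30, so that the M/M difference was close to that of the array medians. Th2 exceeded Th1 by 0.52 (SE 0.18, adjusted p = 0.9997), and Th1 minus M/M was -0.48 (SE 0.18, adjusted p = 0.903). The 250 bases before the annotated start of Spp1 are shown because it was the 1 gene, beside Fn1, for which a probe set with a mean signal over 1000 was, as deposited, above control in 3 of 3 experiments with Th2 cytokines. They lie at chr14:5619805-5620054 on the minus strand of GRCr8 in RefSeq, and capitals mark TATAAA and, on the opposite strand, CAGAC.
Spp1: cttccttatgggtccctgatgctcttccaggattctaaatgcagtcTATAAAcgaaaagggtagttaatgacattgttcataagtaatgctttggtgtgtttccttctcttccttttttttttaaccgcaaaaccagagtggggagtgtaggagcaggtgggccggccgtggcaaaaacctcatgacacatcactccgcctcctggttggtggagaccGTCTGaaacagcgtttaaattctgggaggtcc
These begin 204 and 32 bases before the start. TATAAA occurs in 12.9% and CAGAC in 42.9% of promoters over 250 bases. There was no match in this window to CCAAT, which 34.0% of promoters hold, to TGANTCA (6.34%) or to TTCNNNGAA (7.67%).

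As deposited, few matrix probe sets differed from control the same way in all 3 experiments. With Th1 cytokines 1 of 23 was higher (14.0% of all probe sets) and 1 lower (5.72% of all). With M/M cytokines 3 were higher, all of Fn1 (32.0% of all), and 2 were lower, both of Dcn (3.66% of all). With Th2 cytokines 5 were higher, 3 of Fn1, 1 of Dcn and 1 of Spp1 (25.0% of all), and 2 were lower, 1 of Sparc and 1 of Dcn (6.46% of all). No collagen probe set was among them. With the arrays centred, 0 were higher (11.2% of all) and 4 lower (10.9% of all) with Th1, 2 higher (13.5% of all) and 5 lower (23.3% of all) with M/M, and 2 higher (14.9% of all) and 6 lower (15.7% of all) with Th2 cytokines. The lower ones then included Col1a2 with every mixture, Col1a1 rc_AI231472_s_at with Th1 and M/M cytokines, and Col3a1 X70369_s_at with Th2 cytokines. Between mixtures, limma called 0 matrix probe sets and 0 (0%) of all probe sets for Th2 minus Th1, 0 and 0 (0%) for Th2 minus M/M, and 0 and 0 (0%) for Th1 minus M/M. At an unadjusted p under 0.05 there was 1 matrix probe set in each, Spp1 for Th2 minus Th1 (1.85% of all), Sparc rc_AA892248_at for Th2 minus M/M (3.92% of all) and Spp1 for Th1 minus M/M (2.89% of all). The median difference over the 23 was 0.09 for Th2 minus Th1, -0.25 for Th2 minus M/M and -0.34 for Th1 minus M/M, beside 0.05, -0.13 and -0.21 over all probe sets.

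The matrix probe sets varied more between experiments than between mixtures, a pattern that was noticed in the data and is described without a test. The range of the 3 experiment means had a median of 2.03 on the log2 scale over the 23, and the range of the 4 group means had a median of 0.65. Over all probe sets these medians were 1.17 and 0.61. In 21 of 23 the experiments spanned more than the groups, as in 75.6% of all probe sets. Control cultures of experiment 2 had the lowest control signal for 17 of 23 (31.5% of all), among them all 7 collagen probe sets. Control signals of Col1a1 Z78279_g_at were 12.8 times higher in experiment 1 and 8.30 times higher in experiment 3 than in experiment 2. For Bgn U17834_at these folds were 14.2 and 8.15, and for Spp1 2.31 and 1.18. The count was also 17 with the arrays centred on their medians (32.0% of all).

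The sign of the difference from control changed between experiments in the same way for 6 of the 7 collagen probe sets as deposited. All 3 mixtures were below control in experiment 1 for 16 of 23 (28.1% of all) and above control in experiment 2 for 15 of 23 (60.8% of all). Both held for 11 of 23 (14.6% of all), which were 3 of Col1a1, 2 of Col3a1, 2 of Sparc and 1 each of Col1a2, Fn1, Dcn and Bgn. In experiment 3 all 3 mixtures were above control for 6 of 23 (34.3% of all) and below it for 1 of 23 (10.0% of all). With the arrays centred, both held for 6 of 23 (5.09% of all), 4 of them among the 7 collagen probe sets. All 3 mixtures of an experiment share 1 control array, so that a single control culture enters each of these counts 3 times.

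**Figure D3:**
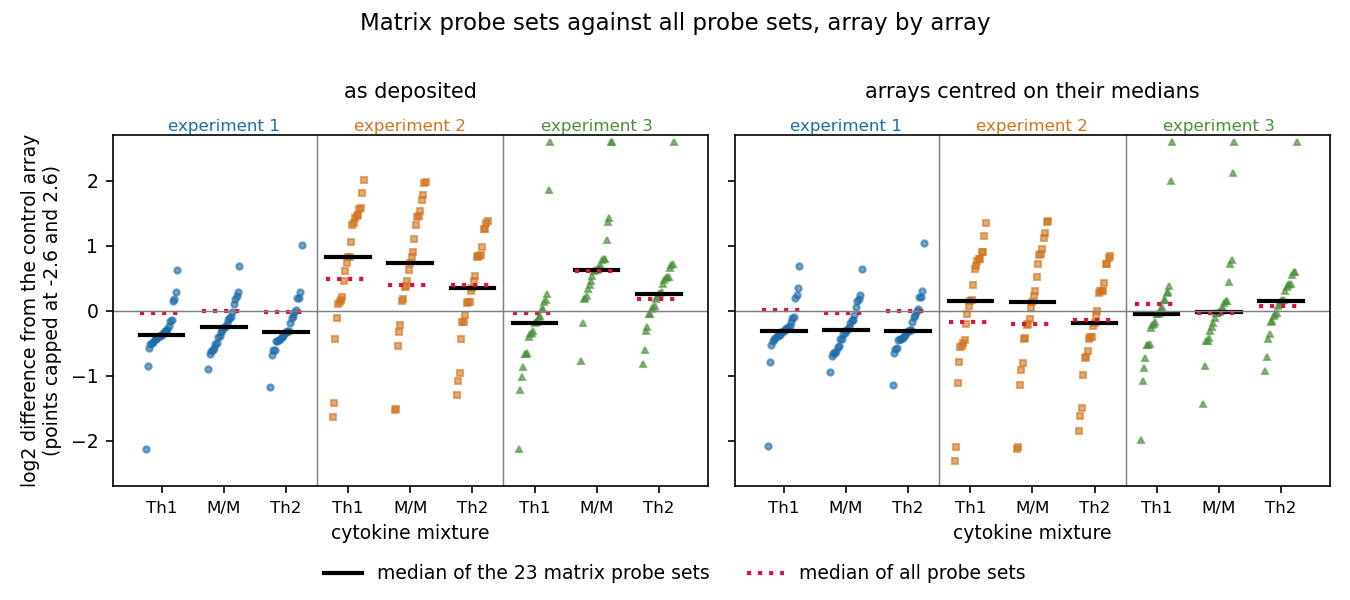
Log2 difference from the control array of the same experiment for each of the 23 matrix probe sets (points), with their median (black) and that of all 8740 probe sets (red, dotted), as deposited on the left and with arrays centred on their medians on the right. In experiment 1 the matrix median is below that of all probe sets for all 3 mixtures, at -0.37, -0.26 and -0.33 as deposited, and in experiment 2 it is 0.82, 0.73 and 0.36.

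As deposited, the median difference of the 23 was -0.37, -0.26 and -0.33 for Th1, M/M and Th2 cytokines in experiment 1, beside -0.04, 0.00 and -0.02 over all probe sets. In experiment 2 it was 0.82, 0.73 and 0.36, beside 0.49, 0.39 and 0.40. In experiment 3 it was -0.18, 0.63 and 0.26, beside -0.03, 0.62 and 0.18. With the arrays centred it lay between -0.32 and 0.15 in all 9 treated arrays. The Th1 fit turned sign for 13 of 23 matrix probe sets when experiment 2 was left out, the M/M fit for 4 and the Th2 fit for 5. Centring turned the sign of 3, 8 and 3.

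Cell type markers also moved with experiment. The summed signal of 6 oligodendrocyte markers was 16690, 14804 and 14466 in Th1, M/M and Th2 cultures of experiment 2, against 13592 in its control culture. In experiment 1 these sums were 8880.2, 10083 and 9158 with the mixtures, against 10236 in the control culture. Of 12 fibroblast and meningeal markers 8 were measured, of which Col5a1, Lum, Fmod and Postn are matrix genes themselves and S100a4 carried most of the signal. Their sum was 2357, 1639 and 2690.3 in Th1, M/M and Th2 cultures of experiment 1, against 2645 in its control culture. In experiment 2 it was 1448, 1583 and 1456 with the mixtures, against 1309 in the control culture. In experiment 3, where the median signal of the control array was 26.9 against 38.4 in experiment 2, the sum was 916, 1170.4 and 1155 with the mixtures and 1082 in the control culture. Astrocyte marker sums ranged from 5650.5 to 7266 with Th1, from 5484 to 7388 with M/M and from 4933 to 7589 with Th2 cytokines, and from 4473 to 8525 in control cultures. Microglia and macrophage marker sums ranged from 7483 to 14840.1 with Th1, from 11350.1 to 16024 with M/M and from 8911 to 13352 with Th2 cytokines, and from 5488 to 12739 in control cultures. Cd14, 1 of the 11 microglia and macrophage markers, was called higher for M/M cytokines (log2 difference 2.55, SE 0.47, limma adjusted p = 0.0486). In experiments 1, 2 and 3 the M/M cultures had Cd14 signals of 3433, 2735 and 2185, and their control cultures 773, 365 and 365.5. This call was lost with the arrays centred on their medians. How far these sums reflect cell number was not tested. The part of cell composition in the differences between experiments was not tested.

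**Figure D4:**
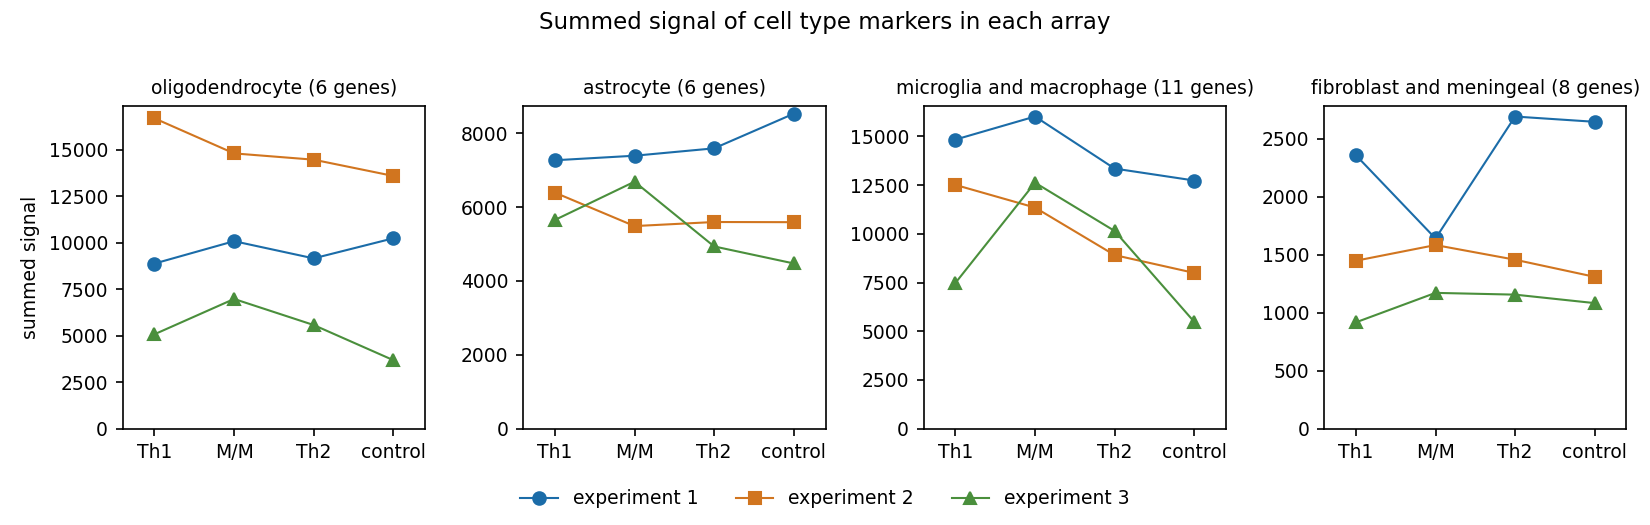
Summed signal of the measured marker genes of 4 cell types in each array, with Th1, M/M, Th2 and control cultures from left to right and 1 line per experiment. Oligodendrocyte sums are highest in experiment 2 (13592 to 16690), and fibroblast and meningeal sums are highest in experiment 1 (1639 to 2690.3).

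Among themselves, Col1a1, Col1a2, Col3a1 and Bgn varied together. At their brightest probe sets the 6 pairwise correlations were 0.88 to 0.96 over the 12 arrays, which fall into 3 experiments, and 0.81 to 0.95 over the 9 differences, which share 3 control arrays. Over all 28 pairs of brightest probe sets the median correlation was 0.67 over the arrays and 0.44 over the differences. Fn1 correlated with Col3a1 at 0.96, with Col1a2 at 0.84, with Bgn at 0.82 and with Col1a1 at 0.81 over the differences. It thus varied with these genes about as closely as they did with each other. The differences were not centred, so that shifts of whole arrays enter them. The grouping is a description and was not tested against other probe sets. Dcn X59859_i_at ran the other way over the differences, at -0.97 with Col1a1 and -0.93 with Bgn, but not over the 12 arrays, where both were 0.12. Spp1 stood further from the collagens, at 0.54 with Col1a1, 0.72 with Col1a2 and 0.48 with Col3a1 over the differences. Its correlations over the 12 arrays were 0.78, 0.66 and 0.81, higher for Col1a1 and Col3a1 but not for Col1a2. Over the differences, Sparc rc_AA892248_at had correlations of 0.13 with Col1a1 and -0.02 with Spp1.

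Outside the 8 genes, the probe sets most like the brightest probe set of each gene over the 9 differences were listed as a description. Col1a1 was most like Bmp6 (r = 0.99), a bone morphogenetic protein, and Plat (0.99), for tissue plasminogen activator. Col1a2 was most like Loxl1 (0.96), which encodes a lysyl oxidase-like enzyme that cross-links matrix proteins, and Fhl2 (0.96). Col3a1 was most like Tatdn2 (0.98) and Naa15 (0.98), Fn1 most like Rgs14 (0.96) and Clpb (0.96), and Bgn most like Fbxw5 (0.99) and Ankra2 (0.99). For Spp1 the closest were Map3k9 (0.95) and Dpm2 (0.93). For Dcn X59859_i_at they were Uck2 (0.95) and Ica1 (0.94), and for Sparc rc_AA892248_at Myh3 (0.94) and Cx3cl1 (0.89). These Dcn and Sparc probe sets departed from others of their own gene, so that their likenesses hold for the probe set and not for the gene.

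Other genes of the matrix were examined from a list of 106, of which 58 were measured, and 0 were called for any mixture. At an unadjusted p under 0.05 there were 0 for Th1 cytokines (5.56% of all probe sets), 10 for M/M cytokines (15.9% of all) and 5 for Th2 cytokines (6.75% of all). The median log2 differences were 0.16, 0.38 and 0.27, beside 0.14, 0.33 and 0.19 over all probe sets. The matrix receptors had the most for M/M, 5 of 11. Cd44, a receptor for hyaluronan and osteopontin, had signals of 898, 441 and 1000.3 with M/M cytokines, against 382, 107 and 181 in control cultures, a log2 difference of 1.92 (SE 0.57, limma adjusted p = 0.171). The lowest M/M signal was above the highest control signal. Ddr1, a receptor tyrosine kinase for collagen, had a difference of 0.92 (SE 0.25, adjusted p = 0.142), and Itgb1, the integrin β1 chain that fibronectin and collagen receptors share, one of 0.79 (SE 0.24, adjusted p = 0.173). For Th2 cytokines the lowest p values were those of Col12a1 (1.08, SE 0.35, adjusted p = 0.715), a fibril-associated collagen, Itga8 (1.41, SE 0.57, adjusted p = 0.715) and the lysyl oxidase gene Lox (1.01, SE 0.43, adjusted p = 0.717). For Th1 cytokines they were Col12a1 (0.75), Itgb3 (-1.27) and Itga8 (1.09), each with an adjusted p of 0.857.

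Genes of TGF-β signalling or known to respond to TGF-β, a constituent of the Th2 mixture, were taken from a list of 34 symbols. The list mixes ligands, receptors and Smad genes with response genes, and it holds Ccn1 and Ccn2 also under their older names. Of these symbols 23 were measured, and counts over them do not measure a TGF-β response alone. For Th2 cytokines 0 passed the test and 9 had an unadjusted p under 0.05 (6.75% of all probe sets). In the fit 18 were above control, but the share of all probe sets above control in that fit was not counted. In single Th2 arrays, which is another measure, 46.5% to 73.4% of all probe sets were above control. The median log2 difference was 0.26, beside 0.19 over all probe sets. For M/M cytokines, which did not include TGF-β, 10 had an unadjusted p under 0.05 (15.9% of all). In the fit 21 were above control, again without a count of all probe sets in that fit. In single M/M arrays 48.4% to 81.7% of all probe sets were above control, so that these numbers are not a like comparison. The median log2 difference was 0.47, beside 0.33 over all probe sets. Junb, an AP-1 transcription factor, had signals of 431, 159.6 and 670.4 with Th2 cytokines, against 168, 43.0 and 127 in control cultures (log2 difference 1.88, SE 0.37, limma adjusted p = 0.228). Ltbp2, for a latent TGF-β binding protein and with a mean signal under 10, differed by 1.94 (SE 0.57, adjusted p = 0.642), and Plaur, for the urokinase receptor, by 0.82 (SE 0.28, adjusted p = 0.715). For M/M cytokines 2 of the 23 passed and were higher, Junb (2.53, SE 0.37, adjusted p = 0.0251) and Timp1, an inhibitor of matrix metalloproteinases (1.23, SE 0.23, adjusted p = 0.0486). Junb signals were 563, 380.4 and 819.6 with M/M cytokines, all above the control signals. Timp1 signals were 1840.5, 914 and 2103 with M/M cytokines, against 967, 395 and 716 in control cultures, higher in 3 of 3 experiments. Both calls were lost, among other alternatives, with the arrays centred on their medians, without the block or without experiment 2, where limma called 0 probe sets for M/M cytokines. For Th1 cytokines 0 passed, with 4 at an unadjusted p under 0.05 (5.56% of all), led by Junb (1.55), Tgfb3 (-1.35) and Timp1 (0.62).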

How the data were processed

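RNA from 12 cultures was hybridised to Affymetrix rat genome arrays, 1 per culture, and the authors calculated probe set signals with dChip v1.2. The deposited values are these signals as linear intensity, and the dChip settings and the normalization between arrays are not given in the sources used here. Of 8799 probe sets, 59 array controls were left out. Gene symbols came from the platform annotation, in which 7006 of the 8740 tested probe sets had 1 symbol, 308 several and 1426 none. Signals were floored at 0.1 (4 of 104880 values lay below), log2 transformed and not rescaled. Differences were fitted with limma 3.58.1 in R 4.3.3 on all 12 arrays with group, experiment as a block and a variance trend (6 residual and about 6.94 prior degrees of freedom). The Benjamini-Hochberg adjustment ran over 8740 probe sets, and the threshold was 0.05. SE is the standard error of a fitted log2 difference.

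The pairing came from the experiment code in the sample labels, and the methods describe 3 separate experiments with different cultures. Deviations from the group means correlated at 0.439 to 0.708 in all 18 pairs of arrays of the same experiment and at 0.357 or less between experiments. The fit was checked on simulated data. All probe sets of the 8 genes are named. From the lists of other matrix genes and of TGF-β genes, the genes named were those called against control or otherwise the 3 with the lowest p. Each gene was taken at its brightest probe set. Cell type markers are given as sums, and apart from Cd14 genes were not named from them by this rule. For likeness, the 2 probe sets with the highest correlation and a mean signal at or above the median were named. The members and lists were chosen with earlier results of these data known. The alternatives were no block or a random block, centring on array medians or quantile normalization, an offset of 16, a floor of 1, leaving out dim probe sets, no variance trend, fitting 2 groups alone, leaving out arrays or experiments, and the screening criteria of the methods (a fold over 2 together with p below 0.2 in an analysis of variance). Promoter sequences came from RefSeq (GRCr8), and tables were made in Python 3.11.15 with pandas 2.3.3.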

Additional observations from a re-analysis of the deposited data

Results flagged for a closer look

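Decorin probe set Dcn rc_AI639233_s_at drew attention because, as deposited, its Th2 arrays were above control in 3 of 3 experiments and its M/M arrays below control in 3 of 3. Its Th2 arrays were at only 1.01 and 1.08 times control in experiments 1 and 2. With the arrays centred, its Th2 log2 difference in experiment 2 was -0.43, so that the 3 of 3 for Th2 was lost. Its signals were 55.4, 3.34 and 27.2 with Th2 cytokines and 47.8, 2.11 and 15.1 with M/M cytokines, against 55.1, 3.08 and 17.3 in control cultures. The difference itself, Th2 minus M/M, was 0.57 on the log2 scale (SE 0.54) and did not pass the test (limma adjusted p = 0.998). The signals of experiment 2 are near the bottom of the scale, and the other 3 decorin probe sets did not have opposite signs of this kind in every experiment.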

How the results depend on the processing

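In this balanced design the block, the variance trend, the arrays fitted together and the filter on dim probe sets cannot move a log2 difference. Under the other alternatives the 23 matrix probe sets had 1932 values, of which 1621 stayed within 1 SE of the value given and 311 moved further. None was called by limma under any alternative, and 2 (Fn1 U82612cds_at and X05831cds_at) passed the screening criteria of the methods for M/M cytokines. For Fn1 X05834_at the M/M difference ranged from 0.07 (without experiment 2 and with arrays centred, an alternative added after seeing the data) to 1.31, with a lowest adjusted p of 0.0534 where only the M/M and control arrays were fitted. Quantile normalization turned the sign of 4, 8 and 3 of the 23 in Th1, M/M and Th2 comparisons, and leaving out the control array of experiment 2 that of 8, 5 and 9. The number of arrays per group, 3, limits all of these.

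The counts over all probe sets were less stable. For M/M cytokines, 23 calls became 0 without the replicate block, 0 with centring, 0 with quantile normalization, 0 with no variance trend, 0 with centring and without experiment 2, 14 with an offset of 16, 57 with dim probe sets left out, 389 with only these groups fitted and 596 by the screening criteria, and ranged from 0 to 70 when an experiment or array was left out, with 70 without experiment 1, 66 without its control array and 0 without experiment 2. For Th2 cytokines, 1 call became 0 without the replicate block, with centring, with quantile normalization, with no variance trend and with centring without experiment 2, 13 with only these groups fitted and 299 by the screening criteria, and ranged from 0 to 3 when an experiment or array was left out. For Th1 cytokines, 0 calls became 1 with only these groups fitted and 242 by the screening criteria, and ranged from 0 to 82, with 58 without experiment 3 and 82 without its Th1 array. Between mixtures, 0 calls became 153 for Th2 minus Th1, 242 for Th2 minus M/M and 167 for Th1 minus M/M by the screening criteria, which are not adjusted. Leaving out an experiment or array gave 0 to 41 for Th2 minus Th1 and 0 to 23 for Th2 minus M/M, with the highest counts without experiment 3. Which of these settings is nearer the truth was not tested.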
